A study of Capra hircus with 29 samples.

Results

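The genes described here are transcription factors that the mammalian oocyte is known for, followed by name in the oocytes of goats with large and with small litters. A row of the expression table belonged to the set where its gene symbol was NOBOX, FIGLA, SOHLH1, SOHLH2, LHX8, TAF4B, TBPL2, POU5F1 or SALL4. Of these 9 symbols, 8 had a row, and they took 10 of the 21343 rows because POU5F1 stood on 3 rows. SOHLH2 was not analysed here. A filter on low values (above 0.5 FPKM in at least 4 samples) left 8 of the 10 rows, 1 for each symbol, among 9692 rows tested over all samples. FPKM is a read level scaled to gene length and to library size, and on that scale levels of different genes are set side by side here. The scaling does not cover differences between genes in how well oligo(dT) captured their RNA, which were not tested.

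RNA-seq of oocytes was read in 29 samples of Ji'ning grey goats, a breed known for large litters. The labels place the high fertility goats at more than 3 kids per birth and the low fertility goats at fewer than 2. The study's methods instead put the limits at 3 or more and at 2 or fewer per litter. Oocytes came from large, medium or small ovarian follicles, which gave the groups HLO, HMO and HSO for high fertility and LLO, LMO and LSO for low fertility. Each group had 5 samples, except HSO with 4 (replicates 1, 3, 4 and 5). No treatment, age or genotype is given in the labels. Each sample held several oocytes, and by the study's methods the oocytes of a stage were pooled over goats before they were divided into samples. The p-values below therefore measure the spread between these pooled samples, which may be technical, and not the spread between goats. In such samples fewer cells of a type and less RNA per cell cannot be told apart.

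Oocyte growth depends on a small set of germ-cell regulators. The bHLH factors SOHLH1 and SOHLH2 and the homeobox factors LHX8 and NOBOX act in the resting follicle and are needed for oocytes to survive and start to grow, while the bHLH factor FIGLA switches on the zona pellucida genes. TBPL2 and TAF4B are germ-cell forms of general transcription factors: TBPL2 takes the place of the TATA-binding protein TBP in growing mouse oocytes, and TAF4B stands in for TAF4 in the TFIID complex. POU5F1 (OCT4) and SALL4 are factors shared with pluripotent cells that oocytes store for the embryo.

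FPKM summed to between 222697 and 490048 per sample, and between 6646 and 8689 genes lay above 0.5 FPKM. The study lists supplementary tables of sequence counts and of mapping, which were not used here, so no counting interval is given. In all, 4 libraries stood apart, by an FPKM sum below 360000 or by more than 25% of the sum in the 10 highest genes: LLO-2, LLO-5, LMO-2 and LSO-1. All 4 are low fertility samples, and the differences that they move most are also given without them. The replicate numbers also went with levels: in a limma F-test for the number, chosen after seeing the data, 50.5% of all genes and 3 of the 8 described here (POU5F1, TBPL2 and SOHLH1) had an adjusted p under 0.05, and the labels do not say what a number marks. Of 11 oocyte marker rows, 9 were above 0.5 FPKM in every sample, with a mean of 1406 FPKM for ZP3 and 312 FPKM for GDF9. Of 19 rows of granulosa and cumulus markers, 4 (STAR, SERPINE2, KITLG and HAS2) were above 0.5 FPKM in every sample, and GJA1 was in 19 of 29. A further 4 (AMH, AMHR2, NR5A1 and HSD17B1) were at 0 in all samples, and FSHR reached at most 0.283 FPKM. The list summed to between 12.6 and 79.7 FPKM, mostly from STAR, SERPINE2 and KITLG. Of 7 theca and stroma rows, DCN was above 0.5 FPKM in every sample, and ACTA2 and COL1A2 were in 28 of 29. The correlation of the members with the granulosa and cumulus sum lay between a Spearman rho of -0.375 (FIGLA) and 0.242 (TBPL2) over the 29 samples. The part of RNA from other cells in the results was not tested.

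Levels of the 8 genes spanned from well above most regulators to the edge of detection. LHX8 and SALL4 were the most abundant, at 33.7 ± 12.2 and 32.2 ± 15.2 FPKM (mean ± SD, n = 29), and by their means they ranked 24 and 28 among the 1220 rows annotated with DNA-binding transcription factor activity. TBPL2 followed at 12.6 ± 5.13 FPKM and FIGLA at 9.55 ± 8.83 FPKM. POU5F1 (the row ENSCHIG00000021343) had 4.65 ± 2.74 FPKM, TAF4B 1.93 ± 0.747 FPKM and SOHLH1 1.90 ± 4.87 FPKM. NOBOX was lowest, at 0.379 ± 0.315 FPKM, and passed 0.5 FPKM in 8 of 29 samples. Among neighbours in this order, the means of SALL4 and TBPL2 alone differed by more than the larger SD of the pair, and LHX8 was above SALL4 in 21 of 29 samples.

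**Figure D1:**
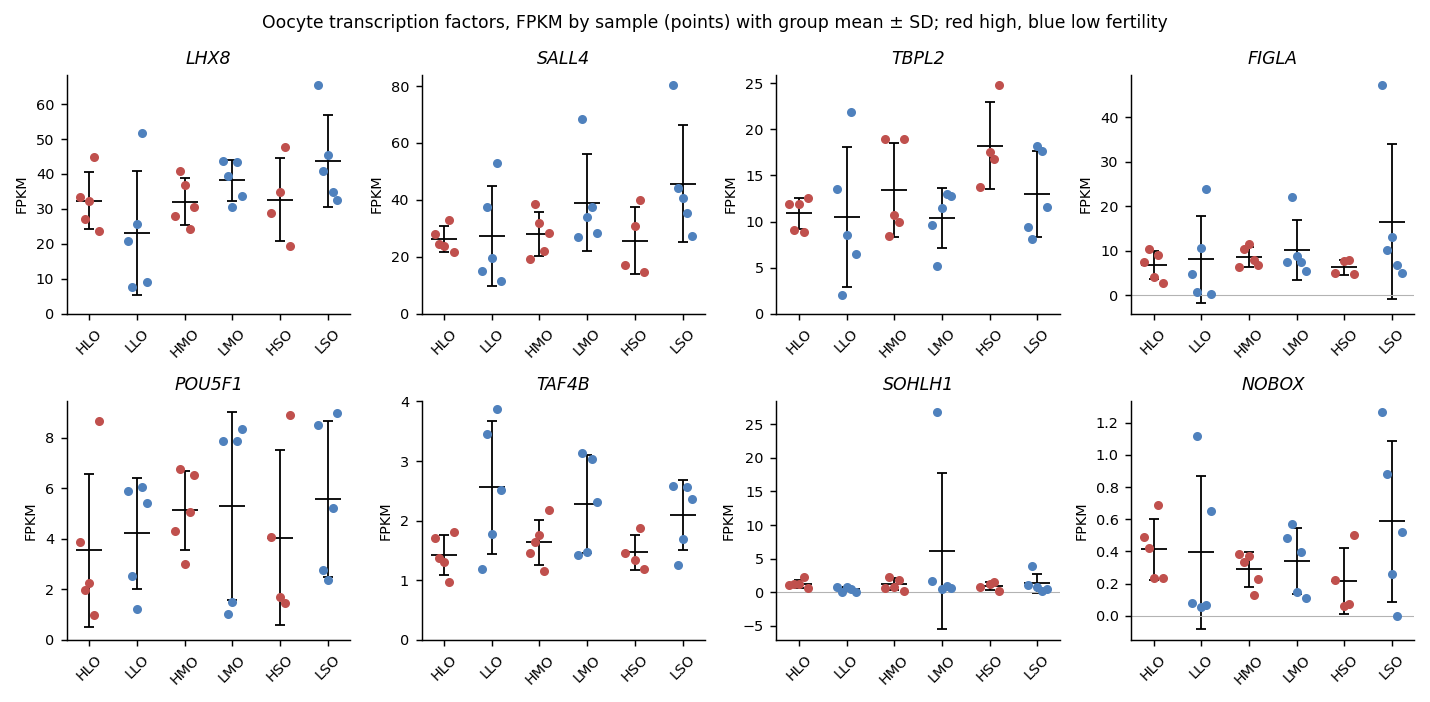
FPKM of the 8 genes in every sample, by group (points; red for high and blue for low fertility), with the group mean and SD as a bar, on a linear axis for each gene. The high and low fertility groups overlap for every gene in every stage, and the low fertility groups hold the samples far above the rest, such as FIGLA at 47.1 FPKM in LSO-1 and SOHLH1 at 26.9 FPKM in LMO-2.

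LHX8, a LIM-homeobox factor that early oocytes need to differentiate, was present at 7.51 FPKM or more in all samples. In replicate order, LHX8 measured 33.5, 27.1, 32.3, 45 and 23.6 FPKM in HLO and 20.9, 7.51, 25.7, 51.6 and 9.14 FPKM in LLO. In medium follicles it had 27.8, 40.9, 36.9, 24.3 and 30.5 FPKM in HMO and 43.8, 39.4, 30.4, 43.4 and 33.8 FPKM in LMO. In small follicles the values were 28.8, 34.9, 47.6 and 19.4 FPKM in HSO and 65.5, 40.9, 45.3, 34.9 and 32.4 FPKM in LSO. LLO held the lowest values, in replicates 2 and 5, and LSO the highest, in replicate 1, all of them libraries that stood apart, and the ranges of high and low fertility overlapped in each stage.

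NOBOX, a homeobox factor whose loss causes early ovarian failure in mice, was close to the limit of detection here. Its level was 0.488, 0.419, 0.235, 0.688 and 0.233 FPKM in HLO and 0.0825, 1.12, 0.0531, 0.0673 and 0.650 FPKM in LLO. HMO had 0.383, 0.334, 0.375, 0.129 and 0.230 FPKM and LMO 0.482, 0.573, 0.148, 0.394 and 0.107 FPKM. HSO had 0.224, 0.0635, 0.0713 and 0.503 FPKM and LSO 1.27, 0.881, 0.260, 0 and 0.523 FPKM. The values above 1 FPKM were those of LLO-2 and LSO-1, and LSO-4 was listed at 0. LHX8 was higher than NOBOX in 29 of 29 samples, by a median ratio of 106 over the 28 samples with a NOBOX value above 0.

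SOHLH1, a germ-cell bHLH factor that acts before LHX8 and NOBOX in the mouse ovary, was low in nearly all samples. SOHLH1 measured 1.07, 1.15, 1.24, 2.27 and 0.587 FPKM in HLO and 0.844, 0, 0.736, 0.463 and 0 FPKM in LLO. Medium follicles gave 0.584, 2.33, 0.789, 1.83 and 0.243 FPKM in HMO and 1.73, 26.9, 0.516, 0.872 and 0.605 FPKM in LMO. Small follicles gave 0.733, 1.24, 1.5 and 0.254 FPKM in HSO and 1.09, 3.84, 0.848, 0.235 and 0.508 FPKM in LSO. LMO-2 stood far above all others, LSO-2 came next, and LLO-2 and LLO-5 were listed at 0. FIGLA was higher than SOHLH1 in 28 of 29 samples, the exception being LMO-2.

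FIGLA, the bHLH activator of the zona pellucida genes, ran from 0.398 to 47.1 FPKM, and its highest sample was 118 times its lowest. FIGLA had 7.58, 10.3, 4.19, 9.15 and 2.79 FPKM in HLO and 4.85, 0.714, 10.7, 24.0 and 0.398 FPKM in LLO. It had 6.34, 10.4, 11.5, 8.06 and 6.88 FPKM in HMO and 7.56, 22.1, 8.89, 7.40 and 5.46 FPKM in LMO. It had 4.98, 7.65, 7.86 and 4.73 FPKM in HSO and 47.1, 10.2, 13.2, 6.92 and 5.10 FPKM in LSO. All 14 high fertility samples lay between 2.79 and 11.5 FPKM, while 4 of 15 low fertility samples were above and 2 below that range. LMO-2 and LSO-1, which stood apart, were among those above, and LLO-2 and LLO-5 were those below. The share of all genes spread in this way was not counted. The E proteins, with which FIGLA pairs to bind DNA, were also present: TCF3 averaged 4.81 FPKM and TCF12 2.53 FPKM, and FIGLA was above TCF3 in 26 of 29 samples.

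TBPL2, the oocyte form of TBP, was present in every sample. TBPL2 reached 11.9, 9.13, 12.0, 8.89 and 12.5 FPKM in HLO and 13.5, 2.05, 8.59, 21.9 and 6.45 FPKM in LLO. The medium follicles had 19.0, 8.44, 10.8, 9.94 and 19.0 FPKM in HMO and 9.65, 5.14, 11.5, 13.0 and 12.8 FPKM in LMO. The small follicles had 13.8, 17.6, 16.8 and 24.8 FPKM in HSO and 9.38, 8.12, 18.2, 17.6 and 11.6 FPKM in LSO. The lowest values were in LLO-2 and LMO-2, which stood apart, and the highest was in HSO-5. The ranges of high and low fertility overlapped in each stage. All 4 HSO samples lay above all HLO and all LMO samples, a separation picked after the values were seen. HSO and LMO differ in both stage and fertility, and the share of all genes that separate so was not counted.

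TAF4B, the germ-cell form of a TFIID subunit, had the smallest ratio of highest to lowest sample in the set, 4.0. TAF4B measured 1.71, 1.37, 1.30, 0.967 and 1.80 FPKM in HLO and 1.19, 3.46, 1.77, 3.87 and 2.51 FPKM in LLO. For medium follicles it measured 1.45, 1.64, 1.75, 1.15 and 2.17 FPKM in HMO and 1.43, 3.14, 1.47, 3.03 and 2.31 FPKM in LMO. For small follicles it measured 1.47, 1.35, 1.87 and 1.18 FPKM in HSO and 2.58, 1.25, 1.70, 2.57 and 2.37 FPKM in LSO. Of the 15 low fertility samples, 9 lay above the highest of the 14 high fertility samples (2.17 FPKM), and none lay below the lowest, yet the groups overlapped in each stage. LLO-2, LLO-5, LMO-2 and LSO-1, which stood apart, were among these 9. The share of all genes that separate so was not counted.

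POU5F1, the OCT4 factor of the germ line and of pluripotent cells, was read on the row ENSCHIG00000021343. POU5F1 had 3.86, 1.99, 2.23, 0.999 and 8.64 FPKM in HLO and 5.89, 2.54, 1.21, 6.03 and 5.43 FPKM in LLO. The medium groups had 4.29, 6.75, 3.02, 5.05 and 6.50 FPKM in HMO and 7.88, 1.02, 1.48, 7.86 and 8.32 FPKM in LMO. The small groups had 4.08, 1.70, 1.48 and 8.91 FPKM in HSO and 8.48, 2.78, 2.38, 5.21 and 8.98 FPKM in LSO. Values near 1 and near 9 FPKM occurred in both fertility groups, so the spread lay within groups. The other rows with this symbol, ENSCHIG00000010867 and ENSCHIG00000018929, were at 0 in 24 and 26 of 29 samples and never passed 0.536 FPKM. By the study's methods reads with a unique place in the genome were kept, so reads that match several copies equally well are not counted here, and the POU5F1 level is uncertain to that extent.

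SALL4, a zinc finger factor of oocytes and stem cells, matched LHX8 in level. SALL4 had 28.2, 24.6, 23.7, 33.1 and 21.8 FPKM in HLO and 15.1, 37.6, 19.5, 52.8 and 11.6 FPKM in LLO. In the medium groups SALL4 had 19.1, 38.5, 31.8, 22.1 and 28.3 FPKM in HMO and 26.8, 68.5, 33.8, 37.4 and 28.4 FPKM in LMO. In the small groups SALL4 had 17.3, 30.8, 39.8 and 14.6 FPKM in HSO and 80.5, 44.3, 40.8, 35.4 and 27.3 FPKM in LSO. Of the low fertility samples, 5 of 15 lay above the highest high fertility sample (39.8 FPKM) and 1 below the lowest, with LSO-1 and LMO-2 at the top. The share of all genes with such a spread was not counted.

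The groups were put in order of their mean level for each gene, and neighbours in that order were compared with their spread. LSO had the highest mean of LHX8 (43.8 ± 13.1 FPKM, SD, n = 5), SALL4 (45.7 ± 20.5), FIGLA (16.5 ± 17.4), POU5F1 (5.56 ± 3.09) and NOBOX (0.586 ± 0.502). LLO had the highest mean of TAF4B (2.56 ± 1.12 FPKM, n = 5) and the lowest mean of LHX8 (23.0 ± 17.8) and SOHLH1 (0.409 ± 0.398). HSO had the highest mean of TBPL2 (18.3 ± 4.67 FPKM, n = 4) and the lowest of SALL4 (25.6 ± 11.8) and FIGLA (6.31 ± 1.68). Over the 10 rows there were 50 pairs of groups next to each other in this order, and in 0 of them did the means differ by more than the larger of their SDs. Neighbours in an order of means are close by construction, and in some pairs of the sparse POU5F1 rows both groups were at 0. The count therefore cannot show that the groups are alike. Groups further apart in the order were not compared in this way. The SD of FPKM was larger in LLO than in HLO for 6 of 8 genes, in LMO than in HMO for 6 of 8 and in LSO than in HSO for 7 of 8. The exceptions were POU5F1 and SOHLH1 in large follicles, LHX8 and TBPL2 in medium and POU5F1 in small follicles. Without the 4 libraries that stood apart, all of them low fertility samples, the counts were 5 of 8 in large, 4 of 8 in medium and 5 of 8 in small follicles. These counts are a description, as the genes share their libraries.

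The first comparison asked whether oocytes of high and low fertility goats differed at each follicle stage. In large follicles, LHX8 was 0.76 higher in HLO on the log2(FPKM + 1) scale (95% confidence interval -0.40 to 1.91), SOHLH1 0.69 higher (0.13 to 1.25) and TAF4B 0.50 lower (-1.16 to 0.16). None of the 7 genes tested was called by limma's moderated test at a Benjamini-Hochberg adjusted p under 0.05, against a background of 0% of 8328 genes. By an unadjusted p under 0.05, 1 of 7 (SOHLH1, limma adjusted p = 0.828) passed, beside 4.14% of all genes. Without LLO-2 and LLO-5 the difference of SOHLH1 was 0.40 (95% confidence interval -0.20 to 0.99) and that of LHX8 0.053, while FIGLA changed from 0.45 higher to 0.73 lower in HLO and TBPL2 from 0.33 higher to 0.32 lower.

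In medium follicles no difference between HMO and LMO passed the test. SALL4 was 0.42 lower in HMO (SE 0.351), TAF4B 0.29 lower (SE 0.235) and TBPL2 0.32 higher (SE 0.352) on the log2(FPKM + 1) scale. By limma, 0 of 7 genes tested were called after adjustment (background 0.0715% of 8390 genes), and 0 of 7 had an unadjusted p under 0.05 (background 8.67%). SOHLH1 was 0.68 lower in HMO with a 95% confidence interval of -2.16 to 0.81, and without LMO-2 it was 0.10 higher. Without LMO-2 the signs of FIGLA (from -0.10 to 0.20) and POU5F1 (from 0.20 to -0.13) also turned, and the differences of SALL4 and TBPL2 were -0.20 and 0.12.

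In small follicles SALL4 and FIGLA had the largest differences, 0.82 (SE 0.420) and 0.86 (SE 0.545) lower in HSO than in LSO on the log2(FPKM + 1) scale. LHX8 was 0.44 lower, POU5F1 0.47 lower and NOBOX 0.34 lower in HSO, and TBPL2 was 0.50 higher. By limma, 0 of 8 genes were called after adjustment (background 0.0119% of 8376 genes), and 0 of 8 had an unadjusted p under 0.05 (background 4.41%), SALL4 being closest (limma adjusted p = 0.88, 95% confidence interval -1.75 to 0.10). Without LSO-1 the difference of FIGLA was -0.39, that of SALL4 -0.60, that of LHX8 -0.28 and that of POU5F1 -0.31. In all, the ranges of the high and the low group overlapped in 24 of 24 comparisons of a gene within a stage. Groups of 4 or 5 samples seldom separate fully without a difference, and the share over all genes was not counted. The overlap is therefore a description and says nothing particular about this set.

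**Figure D2:**
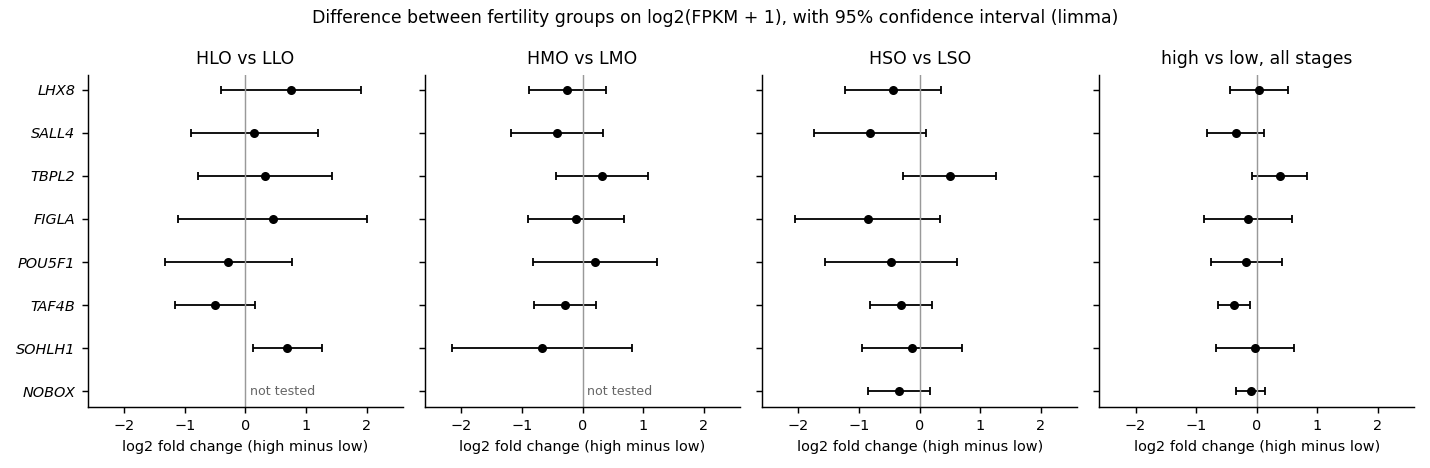
Difference between high and low fertility on log2(FPKM + 1) for each gene (points) with its 95% confidence interval from limma (bars), by stage and over all stages; positive values are higher in high fertility. The intervals cross 0 except for SOHLH1 in large follicles (0.13 to 1.25) and TAF4B over all stages (-0.63 to -0.11), neither called after adjustment.

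Over all stages, with the stage as a term, TAF4B was the gene of the set with the clearest difference, 0.37 lower in high fertility (SE 0.129, 95% confidence interval -0.63 to -0.11, limma adjusted p = 0.423). Its mean was 1.51 ± 0.328 FPKM in the 14 high fertility samples and 2.31 ± 0.830 FPKM in the 15 low fertility samples. By limma, 0 of 8 genes were called after adjustment (background 0.0103% of 9692 genes), and 1 of 8 had an unadjusted p under 0.05, beside 9.99% of all genes. It was lower in high fertility, as were 6.59% of all genes at that threshold. Without the 4 libraries that stood apart, the difference of TAF4B was -0.26 (SE 0.129, limma adjusted p = 1), its unadjusted p no longer passed 0.05, and 3.61% of all genes had an unadjusted p under 0.05. With limma's array weights, which give uneven samples less weight, TAF4B was -0.33 at an adjusted p of 0.0456, but then 7.13% of all genes were called and the median of all genes lay at -0.16. POU5F1 moved most with these weights, from -0.17 to -0.72 (95% confidence interval -1.20 to -0.23, limma adjusted p = 0.0572). Without weights, TBPL2 was 0.38 higher in high fertility (95% confidence interval -0.08 to 0.83), and 0.076 higher without those 4 libraries. For LHX8 the difference was 0.04 with an interval of -0.44 to 0.52, and for NOBOX -0.10 with an interval of -0.34 to 0.14. Without those 4 libraries LHX8 was -0.16 and NOBOX 0.062.

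The second comparison asked whether the genes differed between follicle stages, with the fertility group as a term. LHX8 had a lowest, median and highest value of 7.51, 26.4 and 51.6 FPKM in large, 24.3, 35.3 and 43.8 FPKM in medium and 19.4, 34.9 and 65.5 FPKM in small follicles. TBPL2 had 2.05, 10.5 and 21.9 FPKM in large, 5.14, 11.1 and 19.0 FPKM in medium and 8.12, 16.8 and 24.8 FPKM in small follicles. Both thus had their lowest medians in large follicles, with wide overlap. On the log2(FPKM + 1) scale LHX8 was 0.60 lower (SE 0.291) and TBPL2 0.59 lower (SE 0.276) in large than in small follicles, both with a limma adjusted p = 0.996. These 2 of 8 genes had an unadjusted p under 0.05, beside 3.84% of all genes (3.39% of all genes when only those lower in large follicles are counted), and the share called after adjustment was 0%. Without LLO-2, LLO-5, LMO-2 and LSO-1 the difference of LHX8 was -0.12 and that of TBPL2 -0.37.

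Between large and medium follicles and between medium and small follicles, 0 of 8 genes were called by limma after adjustment (background 0% in both), and 0 of 8 had an unadjusted p under 0.05 (background 2.4% and 0.485%). The F-test over the 3 stages called 0 of 8 (background 0%), with 0 of 8 at an unadjusted p under 0.05 (background 1.66%). Whether the fertility difference itself changed with the stage was tested by the interaction. It called 0 of 8 genes (background 0%), and at an unadjusted p under 0.05 there were 0 of 8 (background 7.89%). LHX8, whose difference went from 0.76 in large to -0.44 in small follicles, had the smallest p of the set (limma adjusted p = 0.701), and without the 4 libraries that stood apart its limma adjusted p = 0.986.

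TBPL2 and TAF4B were next compared with the widely expressed genes they resemble. TBP averaged 3.25 ± 1.70 FPKM (SD, n = 29) on the row ENSCHIG00000008033, while another row with this symbol was at 0 in all samples. TBPL2 was above TBP in 29 of 29 samples, by a median ratio of 4.53 (1.36 to 12.0). TAF4 averaged 1.36 ± 1.25 FPKM, and TAF4B was above it in 25 of 29 samples, with a median ratio of 1.89. The exceptions were HLO-4, LLO-2, LMO-2 and LSO-2. Another relative of TBP, TBPL1, was above TBP in 29 of 29 samples (mean 231 FPKM), and GTF2A1L, the germ-cell form of a TFIIA subunit, was above GTF2A1 in 29 of 29 (159 against 8.17 FPKM).

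**Figure D3:**
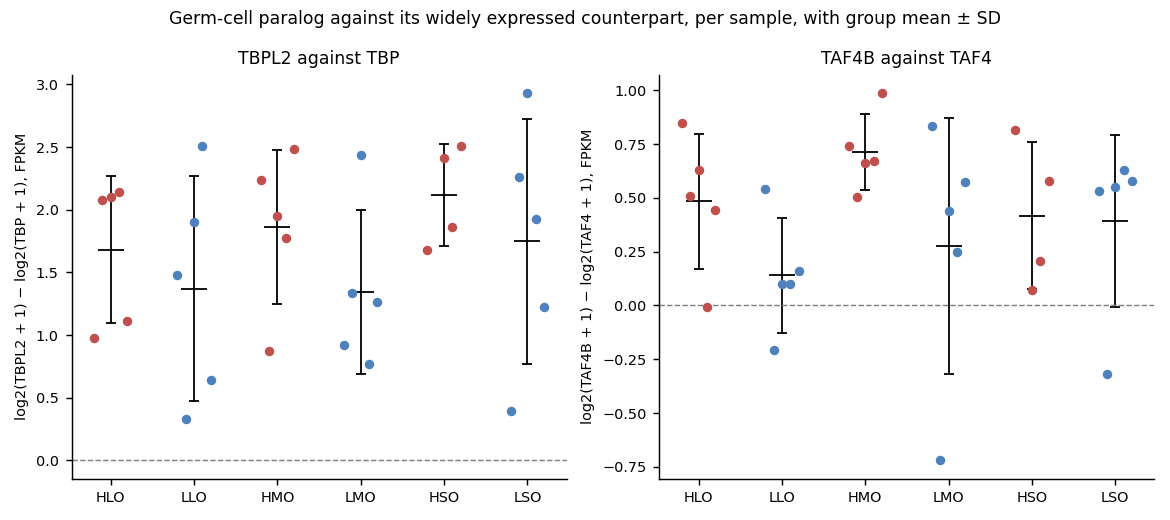
TBPL2 against TBP (left) and TAF4B against TAF4 (right), as the difference of log2(FPKM + 1) within each sample (points; red for high and blue for low fertility), with the group mean and SD as a bar and a dashed line at equal levels. TBPL2 lies above the line in all 29 samples, TAF4B in 25.

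The balance of each pair was compared between fertility groups on the same scale. TBPL2 over TBP was 1.68 ± 0.586 in HLO and 1.37 ± 0.895 in LLO (SD, n = 5 each; exact permutation test, 2-sided p = 0.524). It was 0.52 higher in HMO than in LMO (exact permutation p = 0.222) and 0.37 higher in HSO than in LSO (exact permutation p = 0.508). TAF4B over TAF4 was 0.34 higher in HLO than in LLO (exact permutation p = 0.127), 0.44 higher in HMO than in LMO (exact permutation p = 0.119) and 0.024 higher in HSO than in LSO (exact permutation p = 0.921). After Benjamini-Hochberg adjustment over these 6 tests the smallest p was 0.381, and the smallest raw p that each design allows is 0.00794. Without the libraries that stood apart, TBPL2 over TBP turned to 0.28 lower in HLO and was 0.030 higher in HSO, and TAF4B over TAF4 was 0.23 higher in HLO, 0.19 higher in HMO and 0.059 higher in HSO.

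**Figure D4:**
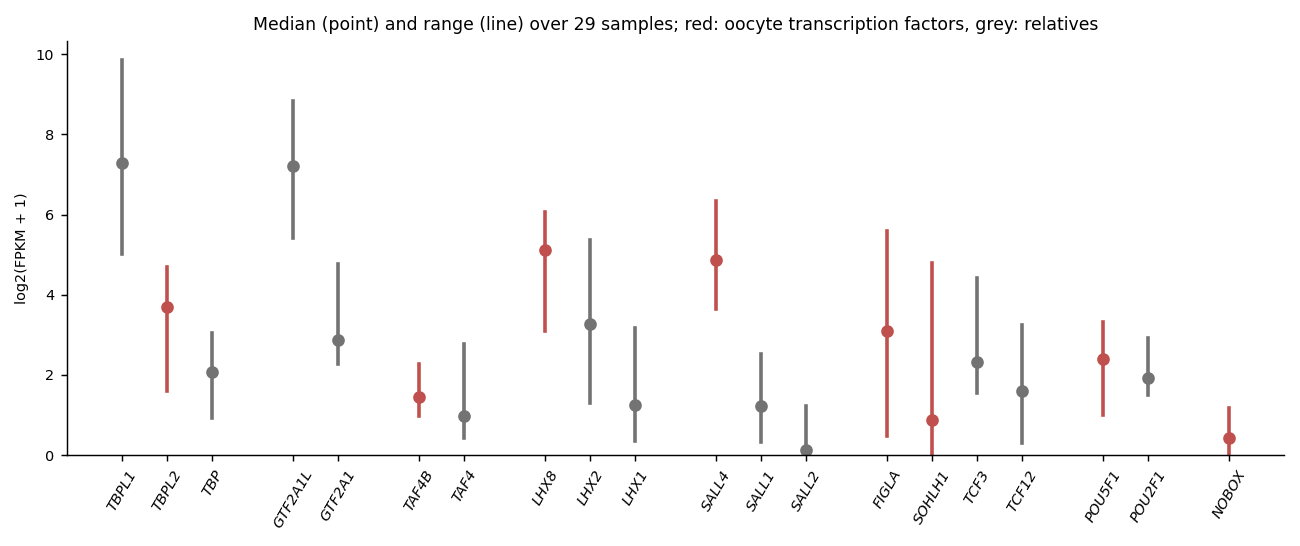
Median (points) and range (lines) of log2(FPKM + 1) over the 29 samples for the 8 genes (red) and for relatives and partners of the same families (grey), grouped by family. LHX8, SALL4, FIGLA and TBPL2 have higher medians than the grey genes plotted for their family except TBPL1, which lies above TBPL2 in all 29 samples. Not every relative is plotted: ID3, of the bHLH and LIM partner list, had a median of 20.4 FPKM, above that of FIGLA (7.58 FPKM).

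LHX8 and SALL4 also stood above the relatives set beside them here. LHX6, another LIM-homeobox gene, was at 0 in 28 of 29 samples and reached at most 0.0926 FPKM. LHX8 was above LHX2 in 28 of 29 samples (LHX2 mean 10.4 FPKM, exception LMO-2) and above LHX1 in 29 of 29. SALL4 was above SALL1 in 29 of 29 samples, by a median ratio of 22.4. POU5F1 was above the widely expressed POU2F1 in 17 of 29 samples only, with a median ratio of 1.48. Among other regulators linked to pluripotency, SOX2, NANOG, PRDM14, TFAP2C and LIN28B never passed 0.5 FPKM, with means of 0.026, 0.027, 0.0084, 0.015 and 0.022 FPKM. Of the 24 rows of that list, 3 were above 0.5 FPKM in all samples (POU2F1, STAT3 and KLF4), 14 never were, and 9 were tested. KLF2 was the other of the 4 highest by mean, at 1.75 FPKM. None of the 9 had an unadjusted p under 0.05 between fertility groups within a stage or over all stages, or between pairs of stages, by limma. In the fertility by stage interaction 1 of the 9 passed that threshold, beside 7.89% of all genes, and none was called after adjustment.

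The general transcription machinery was read on 37 rows, of which 21 were above 0.5 FPKM in every sample and 29 were tested. Its 4 highest genes were GTF2A2 (807 FPKM), TAF10 (407 FPKM), TBPL1 (231 FPKM) and GTF2A1L (159 FPKM). GTF2A2 was read on the row ENSCHIG00000015247, 1 of the rows that share this symbol, and is uncertain to that extent. Over all stages, 0 of 29 were called after adjustment by limma. An unadjusted p under 0.05 was reached by 4 of 29, beside 9.99% of all genes tested. These 4 were lower in high fertility, as were 6.59% of all genes at that threshold. They were subunits of TFIID: TAF4 (log2 difference -0.65, SE 0.188, limma adjusted p = 0.423), TAF5 (-0.77), TAF3 (-0.43) and TAF1 (-0.25). TAF4 averaged 0.737 ± 0.345 FPKM in high and 1.95 ± 1.5 FPKM in low fertility samples, and 7 of 15 low samples lay above the highest high sample (1.49 FPKM). LLO-2, LLO-5 and LMO-2 were among these 7, and the share of all genes that separate so was not counted. Without the 4 libraries that stood apart, 2 of 28 had an unadjusted p under 0.05, TAF4 (-0.42, SE 0.159) and TAF5 (-0.42, SE 0.186), beside 3.61% of all genes. The median difference over the 29 was -0.11, and over all genes tested it was -0.04. Within stages, 1 of 27 in large, 1 of 27 in medium and 2 of 28 in small follicles had an unadjusted p under 0.05 by limma. The shares of all genes were 4.14%, 8.67% and 4.41%. TAF4 was 0.84 lower in HLO (SE 0.334, limma adjusted p = 0.828). TAF13 (row ENSCHIG00000011331, mean 8.91 FPKM) was 2.37 higher in HMO (SE 0.639, limma adjusted p = 0.21). Its more abundant row, ENSCHIG00000005868 (mean 22.9 FPKM), did not pass. TAF2 and TAF5 were 0.73 and 0.71 lower in HSO (SE 0.323 and 0.321, limma adjusted p = 0.88 for both). The fertility by stage interaction had 2 of 29 at an unadjusted p under 0.05, beside 7.89% of all genes. At the same threshold, 1 of 29 passed between large and medium follicles, beside 2.4% of all genes. Between large and medium follicles TAF3 was 0.59 higher in large follicles (SE 0.246, limma adjusted p = 1).

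The bHLH and LIM partner list held 28 rows, with 8 above 0.5 FPKM in every sample and 14 tested. LMO3 (28.2 FPKM), ID3 (24.5 FPKM), LHX2 (10.4 FPKM) and LMO4 (7.57 FPKM, 1 of the rows with this symbol) were highest. ID3 belongs to the inhibitors that bind E proteins without binding DNA. LDB1, the bridging cofactor of LIM-homeobox factors, averaged 4.2 FPKM, and LHX8 was above it in 29 of 29 samples. In the fertility by stage interaction 3 of 14 had an unadjusted p under 0.05 by limma, beside 7.89% of all genes. None of the 14 was called there after adjustment. Over all stages 0 of 14 were called by limma after adjustment, and 1 of 14 (SSBP3, -0.26, SE 0.110) had an unadjusted p under 0.05, beside 9.99% of all genes. Without the 4 libraries that stood apart it was 0 of 12. In the stages these were LHX2 in large follicles (0.97 higher in HLO, SE 0.447), LDB1 in medium (0.76 lower in HMO, SE 0.338) and LHX1 in small follicles (1.06 lower in HSO, SE 0.415) by limma, 1 gene each of 12, 11 and 12 tested, beside 4.14%, 8.67% and 4.41% of all genes, with adjusted p of 0.828, 0.565 and 0.88.

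Genes known as targets or products of the oocyte program were the most abundant of all lists. Of 29 rows, 24 were above 0.5 FPKM in every sample, led by ZP3 (1406 FPKM), BTG4 (1171 FPKM), NPM2 (971 FPKM) and ZP4 (424 FPKM), and 11 rows also stood on the marker lists. The zona pellucida genes thus stood far above their activator FIGLA. Between large and small follicles 3 of 26 had an unadjusted p under 0.05 by limma, beside 3.84% of all genes. All were lower in large follicles, as were 3.39% of all genes at that threshold, and 0 of 26 were called after adjustment. ZP2 was 0.76 lower (SE 0.269), DDX4, a germ-cell RNA helicase, 0.70 lower (SE 0.276) and RSPO2, a secreted WNT enhancer, 0.45 lower (SE 0.172), each with a limma adjusted p = 0.996. The median difference over the 26 genes was -0.23, and over all genes tested it was -0.08. By the F-test over the 3 stages 2 of 26 had an unadjusted p under 0.05, beside 1.66% of all genes. By the interaction it was 0 of 26, beside 7.89%. Over all stages FBXO43 (-0.46, SE 0.206) and NLRP14 (-0.36, SE 0.176) were lower in high fertility at an unadjusted p under 0.05, 2 of 26 beside 9.99% of all genes, with adjusted p of 0.473 and 0.5 by limma. Without the 4 libraries that stood apart this was 0 of 26, with FBXO43 at -0.27 and NLRP14 at -0.30. In medium follicles DAZL (row ENSCHIG00000017877), a germ-cell RNA-binding protein, was 0.93 lower (SE 0.272) and OOEP, a subunit of the subcortical maternal complex, 1.53 higher in HMO (SE 0.703), 2 of 25 at an unadjusted p under 0.05 by limma beside 8.67% of all genes, with adjusted p of 0.254 and 0.576. Between large and medium follicles RSPO2 was 0.50 lower in large follicles (SE 0.167, limma adjusted p = 1).

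The 8 genes varied together only in part. Of 28 pairs, 3 had a Spearman rho over 0.6 across the 29 samples on log2(FPKM + 1): LHX8 with SALL4 (0.769), FIGLA with LHX8 (0.673) and FIGLA with SALL4 (0.653). With group means removed, Pearson's r of these pairs was 0.562, 0.842 and 0.639. NOBOX and TBPL2 had the lowest rho, -0.541, and the other 24 pairs lay between -0.5 and 0.6. POU5F1 had a rho of -0.0833 with LHX8 and -0.205 with SALL4. These points share their libraries and scaling, and several genes followed a library measure: SALL4 had a rho of -0.602 and TBPL2 of 0.520 with the FPKM sum, and POU5F1 of 0.723 and TBPL2 of 0.579 with the number of genes above 0.5 FPKM. They are given as a description, with no test.

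Across all tested genes with a symbol of their own, the 3 with the highest Spearman rho were found for each member over the 29 samples. LHX8 was followed most closely by DLX4 (0.930), a homeobox gene, then by SLC25A33 (0.906) and ZFYVE26 (0.903). SALL4 was followed by WNK1 (0.927), ULK1 (0.916) and TMEM131 (0.915). TAF4B was followed by USP1 (0.896), ZNF451 (0.887) and SCAF11 (0.880). For FIGLA they were ZAR1L (0.889), an oocyte RNA-binding protein gene at a mean of 119 FPKM, SMPD4 (0.888) and BCL6 (0.878), and for SOHLH1 they were PDGFA (0.866), TRAPPC5 (0.836) and DGCR8 (0.827). POU5F1 was followed by PRMT5 (0.850), NEMP1 (0.841) and PHACTR4 (0.840), and TBPL2 by GLRA1 (0.835), HUS1 (0.824) and MCTS1 (0.819). NOBOX had the lowest values, with BCAT2 (0.727), TRAF7 (0.723) and SLC52A2 (0.661). These values are the highest of 9692 genes and describe these libraries only.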

How the data were processed

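Oocyte RNA enriched with oligo(dT) was sequenced in 29 samples of 6 groups. By the study's methods, the authors mapped reads against the goat genome, retained those with a unique place and few mismatches, removed duplicates with picard and estimated levels with Cufflinks and Ensembl genes; the aligner and the genome build are not given in the sources used here. The deposited values are FPKM, scaled by the authors to gene length and library size. The study's supplementary tables of sequence counts and mapping were not used, so the depth per sample was not considered and no counting error is given. Groups came from the sample labels, and 1 sample column that matched no labelled sample was not used. No pair of samples was identical. The table repeats some gene symbols (3738 rows share one), and such rows are named with their identifiers.

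Values were taken as log2(FPKM + 1), which understates the fold change of low genes. Genes above 0.5 FPKM in at least 4 samples of a fit were tested with limma 3.58.1 in R 4.3.3, and p-values were adjusted by Benjamini-Hochberg over all genes tested, with 0.05 as the threshold. High and low fertility were fitted per stage on the samples of both groups, and over all 29 samples with stage and fertility as terms. Within-sample ratios were compared by exact 2-sided permutation tests. The fits were tested on simulated data. Summaries used Python 3.11.15, numpy 2.4.6 and pandas 2.3.3, and figures matplotlib 3.10.9.

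The members and the gene lists were chosen with earlier results of these data known. Named were every member, TBP and TAF4, up to 4 genes per list with the highest mean, up to 2 per list and comparison with the smallest unadjusted p under 0.05, and the 3 genes most like each member. Other genes named (further TFIID subunits, DDX4, and the relatives and partners set beside a member) were chosen after their values were seen. Alternatives were other pseudocounts (0.1 and 0.5), filters, scalings, array weights, a replicate block, 1 fit over all samples and leaving out each sample; leaving out the libraries that stood apart, and a test of the replicate number, were chosen after seeing the data. Marker lists of oocytes, granulosa and cumulus cells, theca and stroma (7 rows, summed level 5.49 to 44.2 FPKM) and leukocytes (9 rows, 0.567 to 5.49 FPKM) were summed per sample.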

Additional observations from a re-analysis of the deposited data

Results flagged for a closer look

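In 11 of the 67 sets of a gene and group with 4 or 5 samples, the highest sample stood far from the others, measured by its gap to the nearest value over the whole range of the group. The limits used mark about 1 in 20 sets of normally distributed values. FPKM values were not shown to be so distributed, and a lone value above 0 is always marked. The 11 sets can therefore not be set against that rate. FIGLA was 47.1 FPKM in LSO-1 (next 13.2) and 22.1 FPKM in LMO-2 (next 8.89). SALL4 was 68.5 FPKM in LMO-2 (next 37.4). SOHLH1 was 26.9 FPKM in LMO-2 (next 1.73) and 3.84 FPKM in LSO-2 (next 1.09). LMO-2 and LSO-1 are among the libraries that stood apart, and the part of this in these values was not tested. The other 6 are the rows of POU5F1 that were at 0 in nearly all samples. ENSCHIG00000010867 had 0.0728 FPKM in HMO-2, 0.168 FPKM in HSO-5 and 0.0863 FPKM in LSO-2, and ENSCHIG00000018929 had 0.184 FPKM in HLO-1, 0.358 FPKM in HSO-3 and 0.536 FPKM in LLO-2, each in a group otherwise at 0.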

How the results depend on the processing

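Counts of members called stayed at 0 in the comparisons of fertility and stage under the alternatives run, except over all stages with array weights, where 1 (TAF4B) was called. Array weights also raised the genes called among all genes over all stages from 1 to 691, in HMO against LMO from 6 to 1011, in HLO against LLO from 0 to 2 and in the interaction from 0 to 231. The count of all genes in HMO against LMO was 1 without the 4 libraries that stood apart, 0 with no filter, 3 in 1 fit over all samples, 13 with median-of-ratios factors, 14 with quantile normalization and 0 to 160 when leaving out a sample, and the interaction called 0 to 59 when leaving out a sample. No member that changed sign had been called. Without the 4 libraries that stood apart, the log2 difference between high and low fertility became -0.73 for FIGLA and -0.32 for TBPL2 in large follicles, 0.10 for SOHLH1, 0.20 for FIGLA and -0.13 for POU5F1 in medium follicles, and 0.062 for NOBOX, 0.12 for SOHLH1 and -0.16 for LHX8 over all stages, and TBPL2 over TBP in large follicles became -0.28. Array weights gave 0.14 for SOHLH1, 0.33 for FIGLA, -0.54 for POU5F1 and -0.031 for TBPL2 in medium follicles, 0.025 for SOHLH1 in small follicles, and 0.29 for SOHLH1 and 0.14 for FIGLA over all stages. SOHLH1 over all stages was 0.31 and 0.049 with pseudocounts of 0.1 and 0.5 and 0.031 with median-of-ratios factors. Apart from the removed samples, the cause of these changes was not tested.

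Leaving out 1 sample at a time gave ranges that crossed 0 in large follicles for FIGLA (-0.032 to 1.01), SALL4 (-0.093 to 0.43) and TBPL2 (-0.078 to 0.65), in medium follicles for SOHLH1 (-0.95 to 0.10), FIGLA (-0.26 to 0.20) and POU5F1 (-0.13 to 0.42), in small follicles for SOHLH1 (-0.30 to 0.19) and TAF4B over TAF4 (-0.15 to 0.14), and over all stages for SOHLH1 (-0.11 to 0.24), FIGLA (-0.32 to 0.013) and LHX8 (-0.084 to 0.13). TAF4B over all stages lay between -0.41 and -0.32. The members called by replicate number (3) were 1 to 4 when leaving out a sample, 1 with no filter, 6 with median-of-ratios factors, 6 with quantile normalization and 8 with array weights.

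Same-numbered samples were not treated as pairs, since the labels do not say what a number marks and not every same-numbered pair correlated above 0.1: the deviations from the group means correlated at -0.0476 to 0.525 in large, -0.415 to 0.647 in medium and -0.481 to 0.709 in small follicles, and 15 of 28 samples correlated best with their own number, a hint from the data and not from the design. With the replicate block, SOHLH1 became 0.19 in small follicles and 0.038 over all stages, TAF4B over TAF4 in small follicles became -0.15, and the block changed no call of a member. The block raised the count of all genes called from 6 to 127 in HMO against LMO and from 0 to 70 in the interaction.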

Other observations

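The replicate number, which the labels give without saying what it marks, went with the level of many genes, some members among them. In a limma F-test for the number, with the 6 groups as terms and chosen after seeing the data, 3 of 8 members had an adjusted p under 0.05, beside 50.5% of the 9692 genes tested. POU5F1 (limma adjusted p = 0.00138) had medians of 5.09, 2.54, 1.97, 5.13 and 8.48 FPKM in samples numbered 1, 2, 3, 4 and 5. Its 6 samples numbered 3 lay between 1.21 and 3.02 FPKM and its 6 samples numbered 5 between 5.43 and 8.98 FPKM, with no overlap. These are the numbers with the lowest and highest median, picked after the values were seen. The share of all genes that separate so was not counted. TBPL2 (limma adjusted p = 0.0438) had its lowest median, 8.12 FPKM, in the 5 samples numbered 2. SOHLH1 (limma adjusted p = 0.0470) had a median of 2.33 FPKM in samples numbered 2 and of 0.381 FPKM in those numbered 5. When a sample was left out, the adjusted p of POU5F1 stayed between 0.000479 and 0.00478, while those of TBPL2 (0.0260 to 0.227) and SOHLH1 (0.00642 to 0.121) rose above 0.05 in some fits. The cause of the relation to the number was not tested.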
